A study of Mus musculus with 6 samples.

Results

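A set of 10 genes of the Notch pathway were followed across 6 arrays of sorted mouse cells: the receptors Notch1, Notch2 and Notch3, the ligands Dll1, Dll3 and Jag1, and the transcriptional repressors Hes1, Hes5, Hes6 and Hey1. They were taken as the probe sets that the array's annotation gives to exactly 1 of these symbols, which were 17 probe sets for 10 genes, of 45037 probe sets and 18194 genes in all. The cells were of the line OLV2-1, mouse embryonic stem cells that carry the fluorescent protein Venus in the Oct4 (Pou5f1) locus, and every group was sorted as Venus-positive. There were 3 groups of 2 arrays: undifferentiated stem cells (ESC), cells labelled EpiSC-like from aggregates at day 3 of SFEBq, and the Oct4-Venus+ fraction of aggregates at day 7 of SFEBq. SFEBq is a serum-free floating-aggregate culture that drives stem cells towards neural fates. The gates and the handling differed: ESC were also sorted as CD31-positive and EpiSC-like cells as CD31-negative (CD31 is Pecam1), both after trypsin, 1 hour of recovery and antibody staining, whereas day 7 cells were released with EDTA and no CD31 gate is named. Stage cannot be told apart from these differences in gate and handling. The labels name 1 line and are silent on whether the 2 arrays of a group represent separate cultures, so the p-values rest on a spread that may be technical.

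Notch receptors sit in the cell membrane and are activated by Delta and Jagged ligands on the neighbouring cell. Activation cuts the receptor, and its intracellular domain enters the nucleus, where it joins the DNA-binding protein RBPJ and switches on Hes and Hey genes. Their products are repressors that hold back the proneural factors in neural progenitors, while cells high in proneural factors make the ligands, so that neighbouring cells take different paths. Hes6 is the exception among the repressors studied here: it is known to be induced by proneural factors rather than by Notch, and to oppose Hes1.

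The deposited values are linear signal intensities, and differences are given on the scale of log2(signal + 16), which understates the change of dim genes. Replicates correlated across genes with r of 0.976 to 0.978, and arrays of different groups with r of 0.948 to 0.976. Arrays numbered 1 and arrays numbered 2 formed separate technical sets, with hybridization controls at 8354 to 10500 and at 16550 to 20030 respectively, so differences within each set are given beside the main results. ESC replicate 2 and EpiSC-like replicate 2 also read low in the poly-A controls (73.32 and 76.87, against 591.3 to 826.3 on the other arrays). The labelled cell types were checked against their markers: Pou5f1 read 6244 to 14060 on all 6 arrays, and 4 primed epiblast genes summed to 28300 and 32964 in EpiSC-like cells, against 9730 to 12694 in ESC and 12636 to 16520 at day 7. Dnmt3b made up most of that sum, at 17820 and 22680 in EpiSC-like cells, 10400 and 7148 in ESC, and 10850 and 7356 at day 7. Fgf5 and Pou3f1 were also highest in EpiSC-like cells, while Otx2 was highest at day 7 (3972 and 4509, against 3848 and 3827 in EpiSC-like cells). Day 7 replicate 2 stood apart in markers of other cell types: 9 genes of primitive and visceral endoderm summed to 10775 there, against 2553 on day 7 replicate 1 and 659 to 917 on the ESC and EpiSC-like arrays. Most of both day 7 sums was Col4a1, at 1853 on replicate 1 and 7417 on replicate 2. All 9 read higher on day 7 replicate 2 than on replicate 1, though Gata4 (36.77 and 55.09) stayed within its range on the other arrays (17.94 to 62.99). In sorted populations measured in bulk, fewer cells of a type and less RNA per cell cannot be told apart.

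Hes6 was the gene on which the data turned. On its brighter probe set it read 233.8 and 179.9 on the ESC arrays, 2336 and 2129 on the EpiSC-like arrays, and 1193 and 988.1 on the day 7 arrays. The 3 groups did not overlap, with ESC lowest, day 7 between and EpiSC-like cells highest. Hes6 rose by 3.34 ± 0.25 (SE) on the log2 scale from ESC to EpiSC-like cells, a 10.2-fold difference (95% interval of the log2 difference 2.75 to 3.94; limma adjusted p = 0.014). At day 7 it was still 4.98-fold above ESC, a rise of 2.32 ± 0.25 (limma adjusted p = 0.0291). From EpiSC-like cells to day 7 its difference was -1.03 ± 0.25, which did not pass (limma adjusted p = 0.161). The differences were alike in both array sets: 3.24 and 3.45 between ESC and EpiSC-like cells, 2.28 and 2.36 between ESC and day 7, and -0.96 and -1.10 from EpiSC-like cells to day 7.

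**Figure D1:**
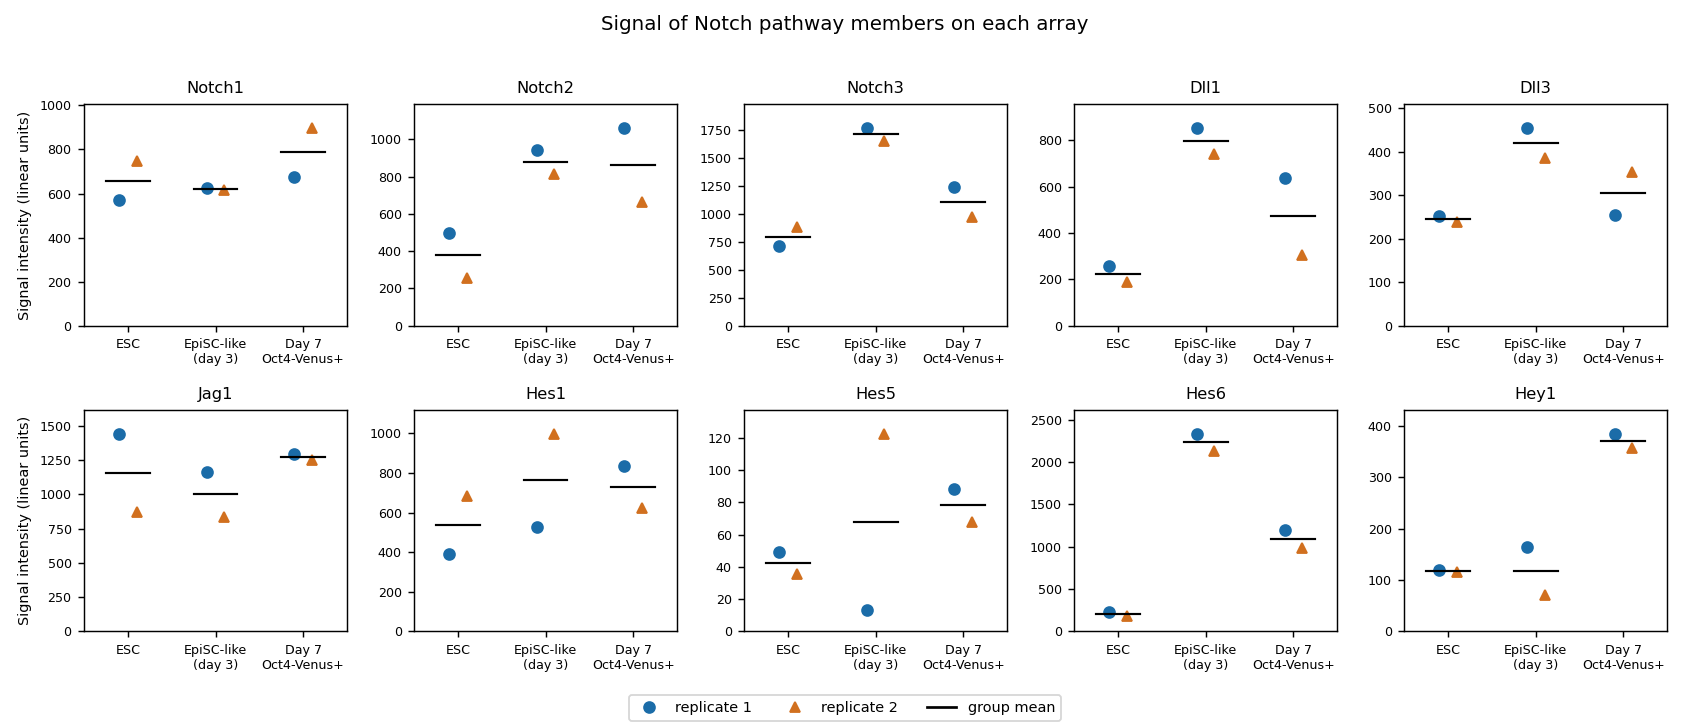
Signal intensity (linear units) of the 10 genes on each of the 6 arrays, with circles for replicate 1, triangles for replicate 2 and a line for the mean of each group; each panel has its own axis from 0. Hes6 lies at 179.9 to 233.8 in ESC, 2129 to 2336 in EpiSC-like cells and 988.1 to 1193 at day 7, whereas Hey1 is high only on the day 7 arrays (356.1 and 384.7).

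The dimmer Hes6 probe set gave the same order. It read 132.1 and 195.2 in ESC, 976.8 and 1198 in EpiSC-like cells, and 422.2 and 363.8 at day 7, again without overlap. Its difference was 2.63 ± 0.29 from ESC to EpiSC-like cells (limma adjusted p = 0.0432 over all probe sets), and 1.21 ± 0.29 for day 7 against ESC, the latter not past the threshold (limma adjusted p = 0.149). On this probe set the day 7 arrays thus sat closer to ESC than on the first. The brighter probe set is of a kind, marked by the array maker, whose probes may also bind other transcripts.

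Because Hes6 and the ligand Dll1 are textbook targets of proneural factors, which bind the E-box CANNTG, the DNA just before their start sites is shown, with E-boxes in capitals. Both are the upstream of 2 start sites in the RefSeq table (GRCm38.p6), both genes lie on the minus strand, and each sequence is the 250 bases before the start, read 5′ to 3′ along the gene: chr1:91414039-91414288 for Hes6 and chr17:15376933-15377182 for Dll1.
Hes6: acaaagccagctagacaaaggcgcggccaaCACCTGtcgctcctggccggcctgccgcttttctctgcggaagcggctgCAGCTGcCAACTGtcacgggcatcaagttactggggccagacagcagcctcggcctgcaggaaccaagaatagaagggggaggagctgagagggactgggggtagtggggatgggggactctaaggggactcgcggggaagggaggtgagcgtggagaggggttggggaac
Dll1: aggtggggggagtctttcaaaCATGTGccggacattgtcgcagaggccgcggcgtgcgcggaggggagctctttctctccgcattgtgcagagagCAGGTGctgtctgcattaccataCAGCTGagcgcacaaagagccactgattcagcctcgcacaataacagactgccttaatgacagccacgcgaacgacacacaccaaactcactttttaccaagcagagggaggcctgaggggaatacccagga
Each of these windows holds 3 E-boxes, and the window at the other start site of each gene holds 1. E-boxes are common: of 32851 mouse promoter windows of 300 bases (250 before the start and 50 after), 72.3% hold at least 1 and 39.6% hold 2 or more, counted on both strands. Among the 10 windows found for 8 of the 10 genes, 7 hold an E-box, and 5 hold the N-box CACNAG, a site of Hes repressors that 42.5% of all windows hold. A match describes the letters and is not evidence of binding.

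Among the receptors, which receive the signal, Notch2 and Notch3 read higher after differentiation and Notch1 overlapped between ESC and both other groups, and none of the 3 passed the test in any comparison. Notch3 read 708.3 and 878.2 in ESC, 1768 and 1651 in EpiSC-like cells, and 1243 and 974.9 at day 7. The EpiSC-like arrays were highest and the 3 groups did not overlap. Its difference for EpiSC-like cells against ESC was 1.10 ± 0.25 (limma adjusted p = 0.0908), with 1.30 and 0.90 in the 2 array sets. For day 7 against ESC it was 0.47 ± 0.25 and for day 7 against EpiSC-like cells -0.63 ± 0.25 (limma adjusted p = 0.375 and 0.335). The dimmer Notch3 probe set had the same order, at 54.47 and 75.96, then 168.0 and 176.6, then 140.0 and 111.2.

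Notch2 read 497.7 and 258.3 in ESC, 945.9 and 814.0 in EpiSC-like cells, and 1062 and 666.5 at day 7. Both later groups lay above ESC and overlapped each other. The differences from ESC were 1.25 ± 0.38 at day 3 and 1.19 ± 0.38 at day 7 (limma adjusted p = 0.175 and 0.179), and day 7 differed from EpiSC-like cells by -0.06 ± 0.38. The other Notch2 probe set was dim on every array, at 1.647 to 38.72, and overlapped between the groups. Notch1, the receptor most studied in neural progenitors, read 571.7 and 745.4 in ESC, 625.8 and 615.8 in EpiSC-like cells, and 675.2 and 897.6 at day 7. Its differences from ESC were -0.07 ± 0.26 and 0.25 ± 0.26, with 95% intervals of -0.70 to 0.56 and -0.38 to 0.88, which leave room for a change of either sign.

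None of the 3 ligands passed the test in any comparison. Dll1, a Delta ligand that activates Notch on the next cell, read 255.5 and 188.1 in ESC, 853.0 and 741.1 in EpiSC-like cells, and 637.2 and 305.9 at day 7. The 3 groups did not overlap, and the day 7 arrays differed from each other more than those of the other groups. The difference of EpiSC-like cells from ESC was 1.78 ± 0.38, or 3.45-fold, second in size to that of Hes6 among the 10 genes, and it did not pass (limma adjusted p = 0.0765). It was 1.68 and 1.89 within the array sets. At day 7 Dll1 differed from ESC by 0.96 ± 0.38 and from EpiSC-like cells by -0.82 ± 0.38 (limma adjusted p = 0.251 and 0.399).

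Dll3 is an unusual Delta protein that does not activate Notch in neighbours and acts within its own cell. It read 252.5 and 237.7 in ESC, 454.9 and 386.5 in EpiSC-like cells, and 254.8 and 353.9 at day 7. EpiSC-like cells were highest, and one day 7 array sat barely above ESC. The difference of EpiSC-like cells from ESC was 0.74 ± 0.26 (limma adjusted p = 0.224). Jag1, the Jagged ligand, read 1445 and 871.2 in ESC, 1167 and 834.6 in EpiSC-like cells, and 1292 and 1253 at day 7. In ESC and EpiSC-like cells it varied more between the 2 arrays than between the groups, with differences from ESC of -0.18 ± 0.32 and 0.18 ± 0.32. Its 3 probe sets did not point one way: for EpiSC-like cells against ESC they gave -0.18, -0.09 and 0.28, and for day 7 against EpiSC-like cells 0.36, 0.32 and -0.37.

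**Figure D2:**
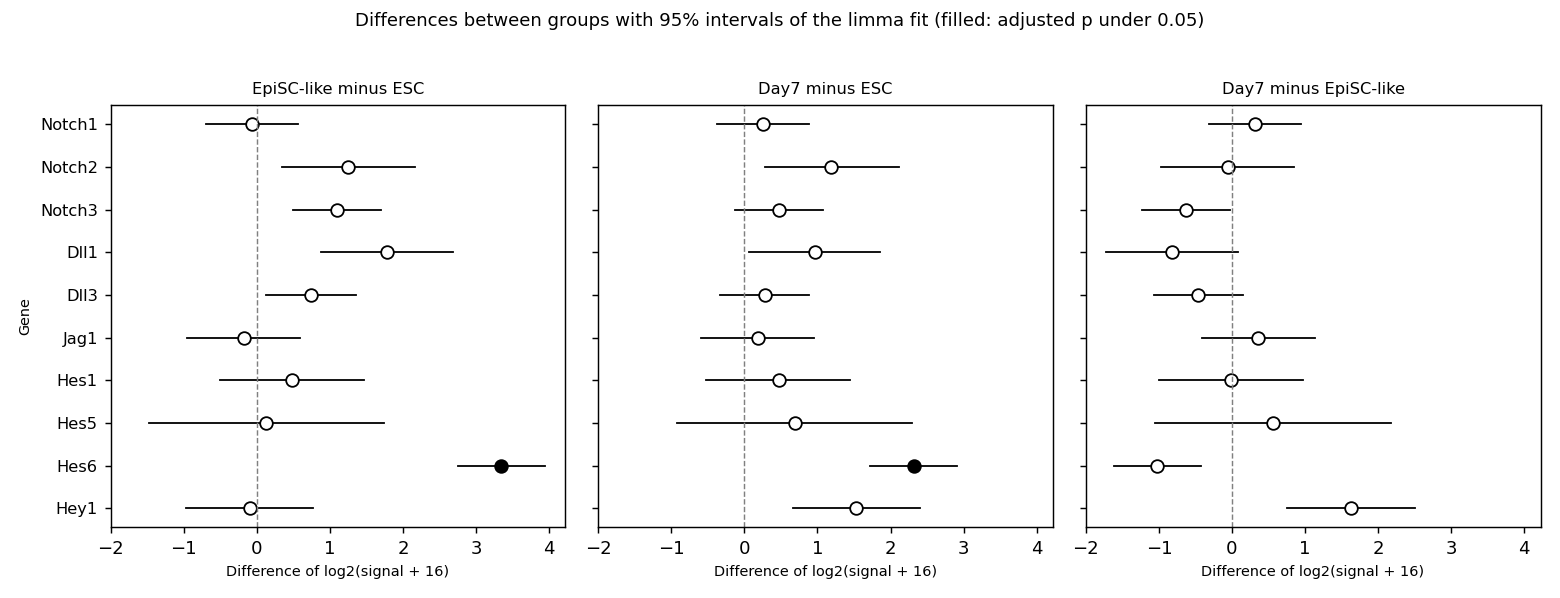
Difference of log2(signal + 16) with its 95% confidence interval for each of the 10 genes in the 3 comparisons, from limma; filled points have an adjusted p under 0.05 over 18194 genes. Hes6 is the filled point in the left panel (3.34, EpiSC-like minus ESC) and in the middle panel (2.32, day 7 minus ESC), and the right panel has none.

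The Hes and Hey genes besides Hes6 are the ones that Notch activates directly. Hey1 read 119.8 and 116.2 in ESC, 163.9 and 70.68 in EpiSC-like cells, and 384.7 and 356.1 at day 7. Both day 7 arrays lay above all 4 others. The difference was 1.53 ± 0.36 against ESC and 1.63 ± 0.36 against EpiSC-like cells, and neither passed (limma adjusted p = 0.107 and 0.136). Hey1 is also a gene of endothelium, and the 5 endothelial markers summed to 572 to 1043 in ESC, 467 to 905 in EpiSC-like cells and 871 to 1128 at day 7, a sum made up mostly of Tek and Pecam1, the gated CD31. Among them Cdh5 was dim and, like Hey1, highest on both day 7 arrays (25.05 and 56.45, against 2.365 to 20.33 on the others), Kdr read 52.70 and 63.99 in ESC and 90.75 to 126.5 on the other arrays, and Tie1 read 1.022 to 7.500 throughout. The part of endothelial or endoderm cells in the Hey1 values was not tested.

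Hes1, the broadly expressed Notch target, read 389.2 and 683.7 in ESC, 527.8 and 998.9 in EpiSC-like cells, and 832.9 and 622.7 at day 7. The groups overlapped, and its differences from ESC were 0.48 ± 0.41 and 0.47 ± 0.41 (limma adjusted p = 0.654 and 0.601). Hes5, the target most closely tied to Notch activity in neural progenitors, was dim. Its brighter probe set read 49.49 and 35.43 in ESC, 13.15 and 122.7 in EpiSC-like cells, and 88.26 and 68.11 at day 7, with a difference from ESC of 0.69 ± 0.67 at day 7 (limma adjusted p = 0.641). The EpiSC-like arrays spanned the range of all others, so no order of that group can be read from this probe set.

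The dimmer Hes5 probe set, of the kind whose probes may bind other transcripts too, separated day 7 from the rest. It read 18.68 and 3.568 in ESC, 28.05 and 20.08 in EpiSC-like cells, and 104.4 and 100.7 at day 7. The difference was 2.19 ± 0.34 against ESC and 1.57 ± 0.34 against EpiSC-like cells, and tested over all probe sets neither passed (limma adjusted p = 0.081 and 0.19). The choice of probe set thus moved the day 7 value of Hes5 from 0.69 to 2.19.

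**Figure D3:**
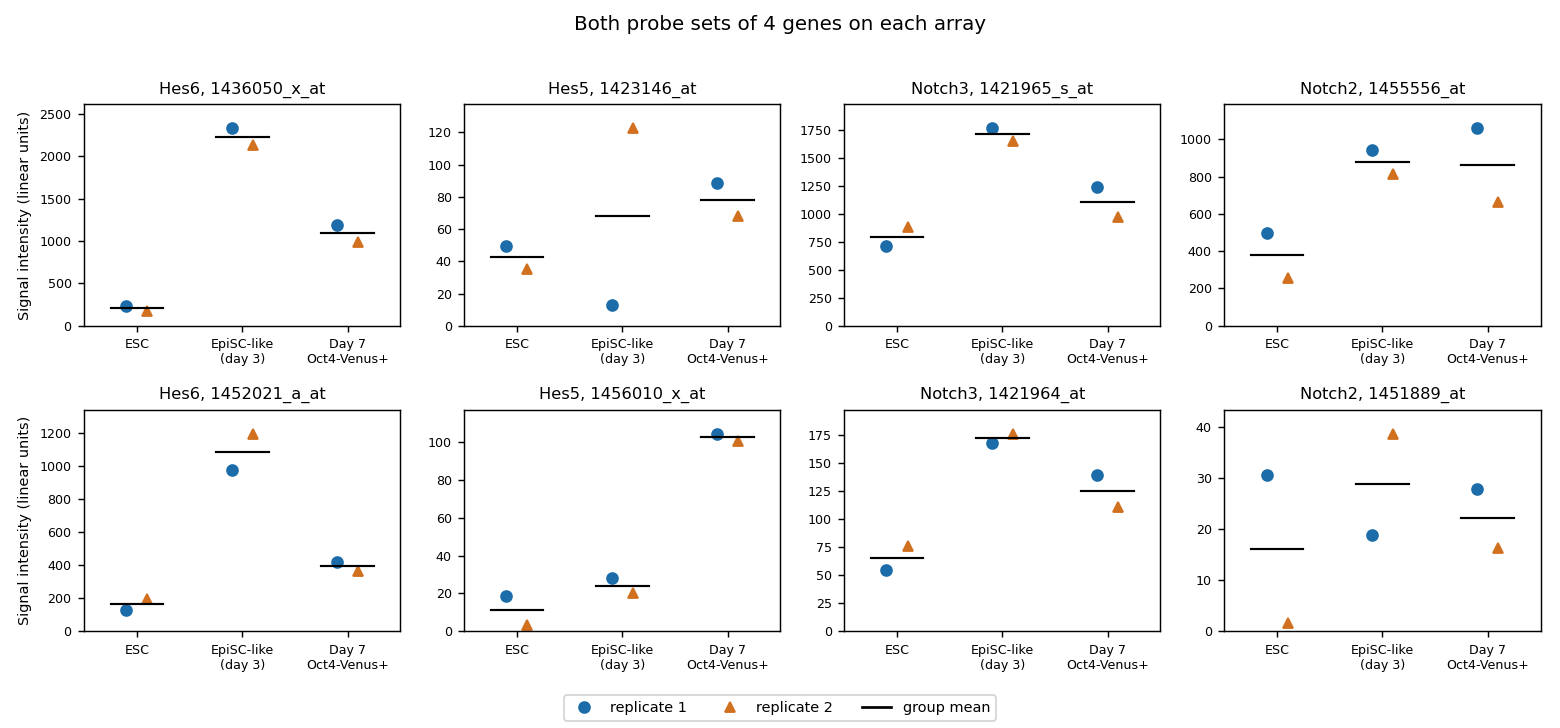
Signal intensity (linear units) on each array of both probe sets of Hes6, Hes5, Notch3 and Notch2, the brighter above and the dimmer below, with circles for replicate 1, triangles for replicate 2 and lines for group means. The Hes6 and Notch3 pairs keep one order of the groups, while the Hes5 pair differs: the upper probe set overlaps between EpiSC-like cells and the others, and the lower is high only at day 7 (100.7 and 104.4).

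Hes5 was also the one gene of the 8 with a promoter window in which the RBPJ core TGGGAA was found on either strand. It occurs there 2 times, a count that 3.8% of all windows reach, while 25.6% hold at least 1. The 30 bases around each match are shown, with the core in capitals, because Hes5 is a textbook target of RBPJ. The first match is on the opposite strand and begins 226 bases before the start, and the second begins 82 bases before it (plus strand, GRCm38.p6, chr4:154960685-154960714 and chr4:154960829-154960858).
Hes5 first match: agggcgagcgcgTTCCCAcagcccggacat
Hes5 second match: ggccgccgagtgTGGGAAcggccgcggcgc
The absence of these letters from the other windows says nothing about RBPJ at those genes.

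From ESC to EpiSC-like cells, 1 of the 10 genes was called, Hes6, in a comparison where 1.9% of all genes were called, 1.31% higher (239 higher and 106 lower; 184 and 149 with each array centred on its median). At an unadjusted p under 0.05 there were 5 of 10 (Notch2, Notch3, Dll1, Dll3 and Hes6), against 16% of all genes. The same 5 genes did not overlap between the groups, all of them higher, against 44.9% of all genes in either direction and 25% in that one. The median difference of the 10 genes was 0.61, and that of all genes 0.03. The Hes6 call was lost with a pseudocount of 1 (limma adjusted p = 0.0722) and with the replicate number as a block (0.0505). In both settings limma called 0 of all genes. The call was also lost without ESC replicate 2, EpiSC-like replicate 1 or EpiSC-like replicate 2, which leaves 1 array in a group. The Hes6 difference stayed between 2.99 and 3.52 in all alternatives. Markers of neural progenitors moved in the same direction as Hes6 in this comparison: all 7 had differences above 0 and 3 were called higher. Their summed signal was 759 to 774 in ESC, 4888 to 5583 in EpiSC-like cells and 2723 to 3367 at day 7. Much of that sum was Prom1, at 376.4 and 336.2, then 3163 and 3465, then 1086 and 878.7. From EpiSC-like cells to day 7, 3 of the 7 (Fabp7, Pax3 and Zic1) had differences above 0 and 4 had differences below 0. No marker of any list read 0 on any array, and the part of cell composition in the Hes6 result was not tested.

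From ESC to day 7, again 1 of 10 was called, Hes6, where 1.04% of all genes were called, 0.753% higher (137 higher and 52 lower; 93 and 82 with centred arrays). An unadjusted p under 0.05 was reached by 4 of 10 (Notch2, Dll1, Hes6 and Hey1), against 18.3% of all genes. All 10 differences were above 0, though Jag1 turned to -0.03 with centred arrays, and the median was 0.58 against 0.02 for all genes. The groups did not overlap, always with day 7 higher, for 7 genes: Notch2, Notch3, Dll1, Dll3, Hes5, Hes6 and Hey1, against 50.1% of all genes in either direction and 26.6% in that one. This Hes6 call was lost when any 1 of the 6 arrays was left out, which leaves 1 array in a group. It was also lost with a pseudocount of 1 (limma adjusted p = 0.0986), with all probe sets tested (0.0661), with only the 4 arrays compared (0.0724) and with the block (0.0664). In these last settings limma called 0 of all genes. All 9 endoderm markers had differences above 0 and none was called, and their part in the day 7 values was not tested.

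From EpiSC-like cells to day 7, none of the 10 genes was called by limma, where 0.0385% of all genes were. At an unadjusted p under 0.05 there were 3: Hes6 and Notch3 with lower values at day 7, and Hey1 with higher values, against 14.1% of all genes. The groups did not overlap for 7 genes, against 45.8% of all genes. Notch1, Jag1 and Hey1 were higher at day 7 (21.3% of all genes), and Notch3, Dll1, Dll3 and Hes6 were lower (24.5%). The 4 with lower day 7 values were thus a receptor, both Delta ligands among the 10 genes and Hes6, all of them above ESC at day 3. On its brighter probe set Dll4, a Delta ligand outside the 10, went the other way without overlap in both steps and was not called. It was dim, at 45.51 and 83.20 in ESC, 40.55 and 32.84 in EpiSC-like cells, and 54.07 and 70.66 at day 7. The dimmer Dll4 probe set overlapped between ESC and EpiSC-like cells and was lowest at day 7 (19.44 and 8.341, then 7.461 and 12.86, then 7.069 and 5.987). The 3 comparisons share arrays, so their values are not independent of each other.

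A list of 47 other genes of the pathway was measured. The 1 called was Dtx4, a Deltex protein that modulates the receptor inside the cell. It read 213.6 and 194.9 in ESC, 835.2 and 1029 in EpiSC-like cells, and 397.0 and 490.9 at day 7, the same order of groups as Hes6 and without overlap. Dtx4 rose from ESC to EpiSC-like cells by 2.10 ± 0.24, or 4.29-fold (limma adjusted p = 0.0227), and its dimmer probe set read 48.80 and 9.145, then 167.4 and 261.9, then 62.33 and 40.11. At day 7 its difference from ESC was 1.06 ± 0.24 (limma adjusted p = 0.103). The call was lost when any 1 array was left out, and 1 of 47 is 2.13%, near the 1.9% of all genes called in that comparison. In the list as a whole 8, 9 and 10 of 47 had an unadjusted p under 0.05 in the 3 comparisons (taken in the order used above), which is 17%, 19.1% and 21.3%, against 16%, 18.3% and 14.1% of all genes. The medians were 0.00, 0.05 and -0.01, near those of all genes (0.03, 0.02 and -0.02).

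**Figure D4:**
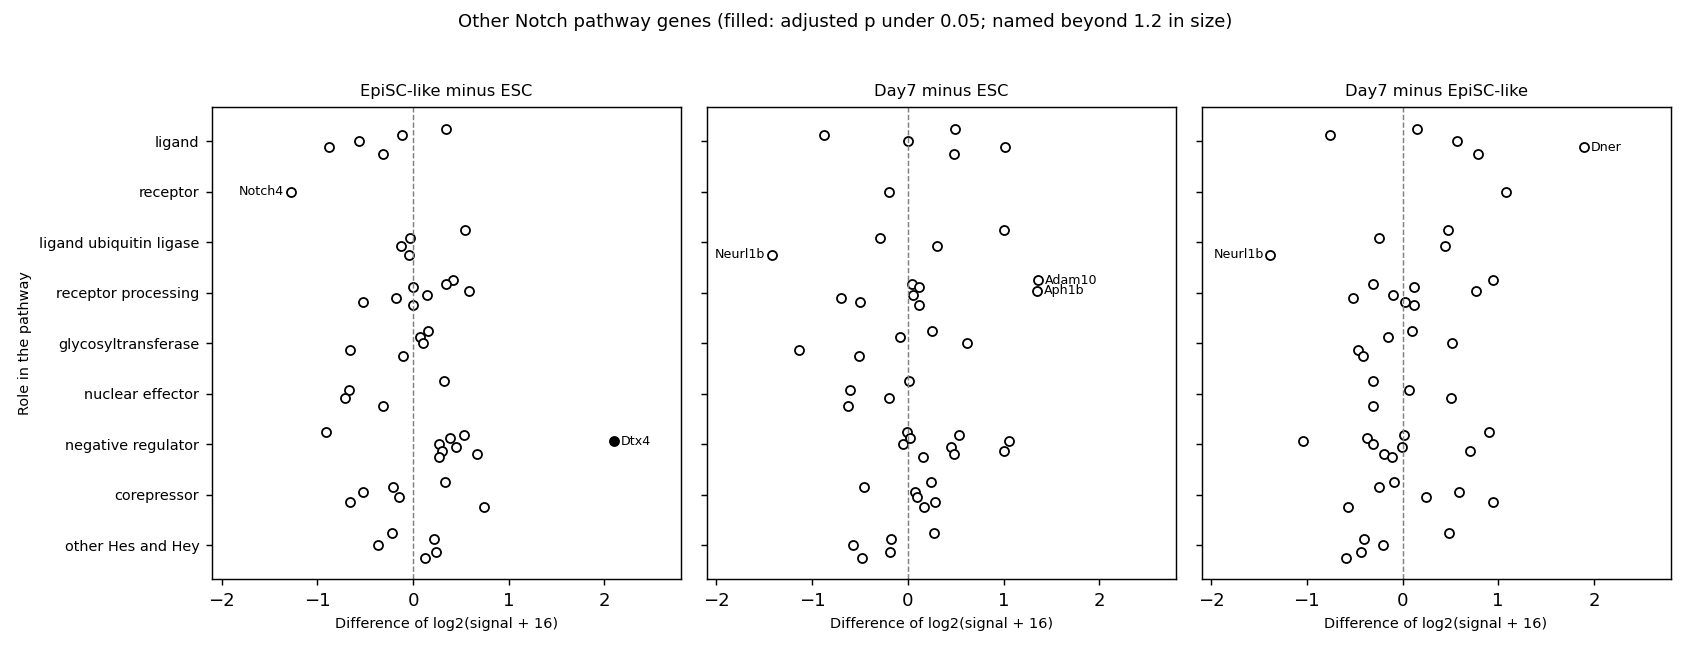
Difference of log2(signal + 16) of 47 other Notch pathway genes in the 3 comparisons, by role in the pathway; each point is a gene, and filled points have a limma adjusted p under 0.05. Dtx4 is the only filled point (2.10, EpiSC-like minus ESC), and open points with a difference over 1.2 in size are named.

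None of the other pathway genes passed in any comparison, and the one with the widest spread of group means in each role is given as values. Rbpj, the DNA-binding partner of the receptor, read 5493 and 5728 in ESC, 3922 and 3002 in EpiSC-like cells, and 5345 and 4468 at day 7, with a difference at day 3 of -0.71 ± 0.25 (limma adjusted p = 0.233). Another Rbpj probe set was lowest at day 7, at 1847 and 2555, then 1518 and 1491, then 1486 and 960. On the dimmest, EpiSC-like cells again read below ESC, and day 7 overlapped both (1190 and 902.9, then 887.5 and 691.8, then 1052 and 725.6). Notch4, the fourth receptor, read 676.8 and 405.3, then 306.3 and 138.0, then 485.5 and 425.5. EpiSC-like cells were lowest, where Notch3 was highest, and ESC and day 7 overlapped. The Notch4 difference at day 3 was -1.28 ± 0.42 (limma adjusted p = 0.20). Its other probe sets were dim, at 9.754 to 61.70, and overlapped between the groups. Dner, an atypical ligand of neurons, had its widest difference between EpiSC-like cells and day 7, 1.90 ± 0.44 (limma adjusted p = 0.147), with day 7 arrays at 333.5 and 784.7, the higher value on the array that stood apart.

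Adam10, the protease that makes the first activating cut, differed between day 7 and ESC by 1.36 ± 0.42, and this was 0.62 in one array set and 2.10 in the other. Poglut1, which adds glucose to the receptor, differed by -1.14 ± 0.24, and Neurl1b, a ubiquitin ligase for ligands, by -1.42 ± 0.24 at signals of 5.225 to 46.25 (limma adjusted p = 0.172, 0.0853 and 0.0558). Nrarp, a feedback inhibitor that Notch itself induces, read 151.4 to 241.9 on the ESC and EpiSC-like arrays, and 339.3 and 400.0 at day 7. Like Hey1, it was highest on both day 7 arrays, with a difference from ESC of 1.00 ± 0.26 (limma adjusted p = 0.12). The corepressor Tle3 differed between day 7 and EpiSC-like cells by 0.95 ± 0.26, and Heyl, a relative of Hey1, by -0.59 ± 0.42 (limma adjusted p = 0.19 and 0.588).

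Proneural factors are transcription factors that drive neurogenesis, and some of them induce Delta ligands and Hes6. Of 8 genes measured on a proneural list, Neurog1 was dim throughout (4.805 to 21.87). Neurog2 reached 71.69 on day 7 replicate 2 and 13.38 to 37.96 on the other arrays. Nhlh2, which was also listed as a neuron marker, alone was called, at day 7 against ESC (4.72 ± 0.70, limma adjusted p = 0.0451), with day 7 arrays at 206.4 and 985.5. This call rests on ESC signals of 1.775 and 1.959, below the pseudocount, stands against 1.04% of all genes called in that comparison, and was lost, like every other call of it, with a pseudocount of 1, all probe sets, the block, only the 4 arrays compared, or any array left out other than day 7 replicate 1. Of the 7 neuron markers, Nhlh2 included, 6 had differences above 0 between ESC and day 7, as had 9334 of all 18194 genes. Among the 6 was Dcx (3.00 ± 0.87, with 78.35 and 603.8 on the day 7 arrays), while Tubb3, Elavl3 and Map2 overlapped between the groups. The summed signal of the 7, 9803 and 14441 in ESC, 2859 and 2258 in EpiSC-like cells, and 3004 and 6591 at day 7, was highest in ESC through Stmn2, which read 8317 and 13360 in ESC and 1459 and 2505 at day 7.

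Hes6 was compared with 9507 genes whose highest group mean was no lower than the median gene, leaving out genes with clone-type names. The 3 whose values over the 6 arrays were most like those of Hes6 were Cachd1 (Pearson r = 0.9985), Limd1 (r = 0.9983) and Mpdz (r = 0.9979). Cachd1 read 269.7 and 158.4 in ESC, 3371 and 3107 in EpiSC-like cells, and 1587 and 1299 at day 7. These r values describe the 6 arrays, which fall into 3 groups, and the genes were picked for them out of 9507.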

How the data were processed

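Sorted cells of 3 groups were measured on 6 Affymetrix arrays, 2 per group. The authors deposited 1 linear signal intensity per probe set and array. The submitters' processing notes name Affymetrix Expression Console, version 1, and the algorithm was not given in the sources used here. With 2% of probe sets trimmed at each end, the mean intensity was 500.003 or 500.004 on every array, so the arrays were already scaled alike. Their number limits the precision.

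After 64 control probe sets were removed, 34945 of 45037 probe sets had 1 gene in the platform annotation and 932 had several. Each of 18194 genes (by NCBI gene identifier) was represented by the probe set with the highest mean of log2(signal + 16). The symbols of the 17 probe sets studied were checked against RefSeq (GRCm38.p6), and 0 changed. limma 3.58.1 (R 4.3.3) modelled 3 group means over the 6 arrays, with neither block nor filter (3 residual degrees of freedom), with eBayes moderation and two-sided tests. Calls were made at an adjusted p under 0.05 (Benjamini-Hochberg, 18194 genes), and the script was tested on simulated data. Values are log2 differences ± SE.

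The 10 genes and all lists were chosen with earlier results of these data known. Named besides the 10 were called genes of a pathway list and a proneural list, the uncalled gene with the widest range of group means per role, Neurog1 and Neurog2 in any case, and the 3 genes most like any called member over the 6 arrays. Dll4 was added to stand beside the other Delta ligands. Promoter windows came from RefSeq (GRCm38.p6), and those of Hes1 and Hey1 were not used here. Some items of the lists are not reported here. Alternatives were the pseudocount, scaling, filters on dim genes, the choice of probe set, the replicate block, eBayes settings, the groups fitted and leaving out each array.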

Additional observations from a re-analysis of the deposited data

How the results depend on the processing

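Of the 504 values of single genes recomputed under 17 alternatives (fewer for Hes5 and Hey1, which the stricter filter on dim genes left out), 464 kept their direction and their side of the threshold, 15 lost a call, 9 gained one and 16 changed sign; the cause was not tested. From ESC to EpiSC-like cells, the 1 call among the 10 genes became 0 with a pseudocount of 1 or the replicate block, 2 (Dll1 and Hes6) with only genes from the 25th percentile of signal upward, and 3 (Notch3, Dll1 and Hes6) with a pseudocount of 64, with only genes from the median upward or with trend and robust settings; leaving out each array gave 0 to 1. The 1 pathway call, Dtx4, became 0 with a pseudocount of 1, with the block, with only the 4 arrays compared and without any 1 array (0 to 0). From ESC to day 7, the 1 call among the 10 genes became 0 with a pseudocount of 1, with all probe sets tested, with the block, with only the 4 arrays compared and without any 1 array (0 to 0), and 2 (Hes6 and Hey1) with a pseudocount of 64. The 0 pathway calls became 2 with a pseudocount of 64 or with trend and robust settings, 1 with centred arrays or the 25th percentile filter, and 3 of 33 with the median filter. Calls among all genes rose too in these settings, except with centred arrays (93 higher and 82 lower, against 137 and 52 in the main fit). With a pseudocount of 64, 471 were higher and 208 lower, and with trend and robust settings 537 and 236. The 25th percentile filter gave 427 and 140 of 13645 genes, and the median filter 551 and 292 of 9097. From ESC to EpiSC-like cells the same 4 settings, centring aside, gave 449 and 223, 504 and 266, 458 and 214, and 451 and 283. From EpiSC-like cells to day 7, the median filter gave 1 call among the 10 genes (Hes6, lower) and 2 in the pathway list (Dner and Dtx4), and leaving out arrays gave 0 to 0. Of all 9097 genes kept by the median filter, 195 were called higher and 120 lower in that comparison. Changes of sign were in uncalled differences. For EpiSC-like cells against ESC, Hes5 was -0.04 with a pseudocount of 1 and -0.02 with centred arrays, and Jag1 was 0 as a mean over probe sets; leaving out single arrays gave -0.26 to 0.12 for Notch1, -0.54 to 0.18 for Jag1, -0.99 to 1.26 for Hes5 and -0.63 to 0.43 for Hey1. For day 7 against ESC, Jag1 was -0.03 with centred arrays and -0.18 to 0.54 without single arrays. For day 7 against EpiSC-like cells, leaving out single arrays gave -0.39 to 0.27 for Notch2, -0.57 to 1.68 for Hes5 and -0.46 to 0.44 for Hes1. Centring the arrays moved the median of all genes from 0.03 to -0.13 (EpiSC-like minus ESC) and from 0.02 to -0.20 (day 7 minus ESC).

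The deviations of same-numbered arrays from their group means correlated with r = 0.283 (ESC and EpiSC-like), 0.079 (ESC and day 7) and 0.097 (EpiSC-like and day 7). These values do not settle whether the samples are paired. The main fit had no block because the labels do not say what the replicate number marks. With the replicate block, limma called 0 of all 18194 genes in each comparison (from 345, 189 and 7), with 3369, 3920 and 3055 at an unadjusted p under 0.05, against 2904, 3331 and 2564 without it.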
